A study of Mus musculus with 18 samples.

Results

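The Cre-by-crush interaction asks, for each gene, whether the response of the retina to optic nerve crush was different after Cre-mediated deletion of Map3k12, the gene of dual leucine zipper kinase (DLK). It was the crushed minus uncrushed difference in Cre-positive retinas less the same difference in Cre-negative retinas, on the log2 scale, and it drew on 17 of the 18 arrays of the study, those whose title, treatment and description gave 1 group. Of 25358 genes tested, 106 (0.418%) were called in the interaction at an adjusted p under 0.05. Every mouse carried floxed Map3k12 alleles, and every mouse, Cre-negative ones included, received tamoxifen at 10 to 12 weeks of age. Cre-positive mice also carried Cre-ERT, a Cre recombinase activated by tamoxifen, under the CAG promoter, which is active in many tissues and does not restrict Cre to ganglion cells. No group had Cre without floxed alleles, so loss of DLK and activated Cre itself cannot be told apart. Per the labels, a little DLK protein was left, in amounts that differed slightly among animals. Whole retinas were taken 3 days after the crush. The 4 groups were Cre-negative uncrushed (n = 4), Cre-negative crushed (n = 3), Cre-positive uncrushed (n = 5) and Cre-positive crushed (n = 5). Each value is log2 of the Cy5 signal of the retina over the Cy3 signal of a universal mouse reference RNA on the same 2-colour Agilent array, and a gene's ratio is compared only with its own ratio in other groups.

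Crush cuts off the axons of retinal ganglion cells, the neurons that send the output of the eye to the brain. DLK is a kinase at the head of a cascade that runs through MKK4 and MKK7 to the JNK kinases and to transcription factors of the AP-1 family, and it relays axon damage to the cell body, where both regeneration genes and death genes are switched on. ATF4 and CHOP (the product of Ddit3) are transcription factors of the integrated stress response, which raises genes for amino acid supply. Glia and microglia respond to the same injury through their own signals, among them cytokines, interferons and complement.

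The targeted gene was read first. Map3k12 was 2.40, 2.51, 2.21 and 2.58 on the uncrushed and 2.59, 2.32 and 2.61 on the crushed Cre-negative arrays, and 2.17, 1.77, 2.04, 1.90 and 2.11 on the uncrushed and 1.94, 1.91, 2.34, 1.84 and 2.14 on the crushed Cre-positive arrays. The Cre-positive values were lower on average, with overlap between the genotypes. The Cre effect was -0.43 in uncrushed (SE 0.11, limma adjusted p = 0.88) and -0.47 in crushed retinas (SE 0.12, limma adjusted p = 0.06), so it passed in neither. Where its probe lies relative to the floxed part of the gene is not given in the sources used here, so the probe does not measure how much working transcript remained. Its interaction was -0.04 (95% interval -0.38 to 0.29), and that of Map3k13, which encodes the related kinase LZK, was 0.12 (95% interval -0.09 to 0.33). Esr1, whose ligand-binding part is in the Cre-ERT fusion, was between 1.80 and 3.30 on Cre-positive and between -0.84 and -0.50 on Cre-negative arrays, which separated the genotypes as labelled.

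The retina was checked by a marker: the group means of the Müller glia gene Rlbp1 were 6.12 to 6.32, far above the reference RNA. Arrays of 1 group correlated across genes at a Pearson's r of 0.982 to 0.996, and Cy5 was well above background for 68.0% to 76.2% of the probes of an array. Cre-positive uncrushed replicate 4 had the highest value of the cornea gene Krt12, at 5.54. Replicate 2 of the same group came next at 3.50, and the other arrays compared were at 2.09 or less. Replicate 2 was also second for the cornea gene Krt5, at 1.18, with those other arrays at 0.63 or less. Cre-positive crushed replicate 5 stood apart with the lens gene Cryaa at 3.18, against a highest value of 1.37 elsewhere. Without uncrushed replicate 4 and crushed replicate 5 of the Cre-positive groups 104 genes were called in the interaction, 94 of them among the 106. Below, these are the arrays high in cornea and lens genes. That fit kept Cre-positive uncrushed replicate 2, so it did not leave out every array with raised cornea genes. Without replicate 2 alone 103 genes were called, 99 of them among the 106. The labels do not say that the arrays come from separate animals, so p-values measure only the spread between these samples. The number of arrays limits the precision, and the median standard error of an interaction was 0.11.

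The crush responses called in the interaction were smaller in Cre-positive retinas. The interaction was below 0 in 72 of the called genes (0.284% of those tested), all of which had risen after crush in Cre-negative retinas, and above 0 in 34 (0.134%), all of which had fallen there. Both sides of that statement share the Cre-negative arrays, so the opposite signs are in part a property of the contrast. The sizes ran from 0.34 to 2.21, with 30 genes at 1 or more (21 lower and 9 higher), while the median interaction over all genes tested was 0.0027. No gene was called with a larger crush response in Cre-positive retinas, and 0 of the 106 were outside the Cre-negative crush response. At an unadjusted p under 0.05 the limma fit gave 2124 genes. The genes just inside the threshold were Hspb1 and Rgs10 (both at an adjusted p of 0.047) and Gpr101 (0.0495), and those just outside were Eif2s2, Plekho1 and Slc29a4 (all at 0.052).

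In Cre-negative retinas crush changed 545 genes (2.15%), 340 up (1.34%) and 205 down (0.808%), and these were sorted by what was left in Cre-positive retinas, where crush changed 192 (0.757%), 170 up (0.67%) and 22 down (0.0868%). A response was called abolished when the interaction passed, the 95% interval of the Cre-positive response included 0, and the contrast of that response with 0.5 of the Cre-negative one had an interval wholly on the smaller side. It was called reduced when the interaction passed but those conditions were not met, and kept when the interaction did not pass and the same contrast lay wholly on the larger side. By this rule 53 responses were abolished (39 rises and 14 falls), 53 were reduced (33 and 20), 42 were kept (40 and 2), 0 were enlarged and 397 (228 and 169) were unresolved. The median share of the log2 change left in Cre-positive retinas was 2.52% for abolished rises, 19.7% for reduced rises and 102.5% for kept rises. For falls it was 6.79% when abolished and 21.5% when reduced. Since the rule itself uses these responses, the shares describe the classes and test nothing. The split of abolished from reduced depends on the width of the interval as well as on the share left. Adcyap1 kept 17.3% and was abolished (95% interval -0.008 to 0.48), while Sprr2g at 10.6% and Gm13889 at 13.5% were reduced. An abolished response is therefore not always a smaller one than a reduced response.

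**Figure D1:**
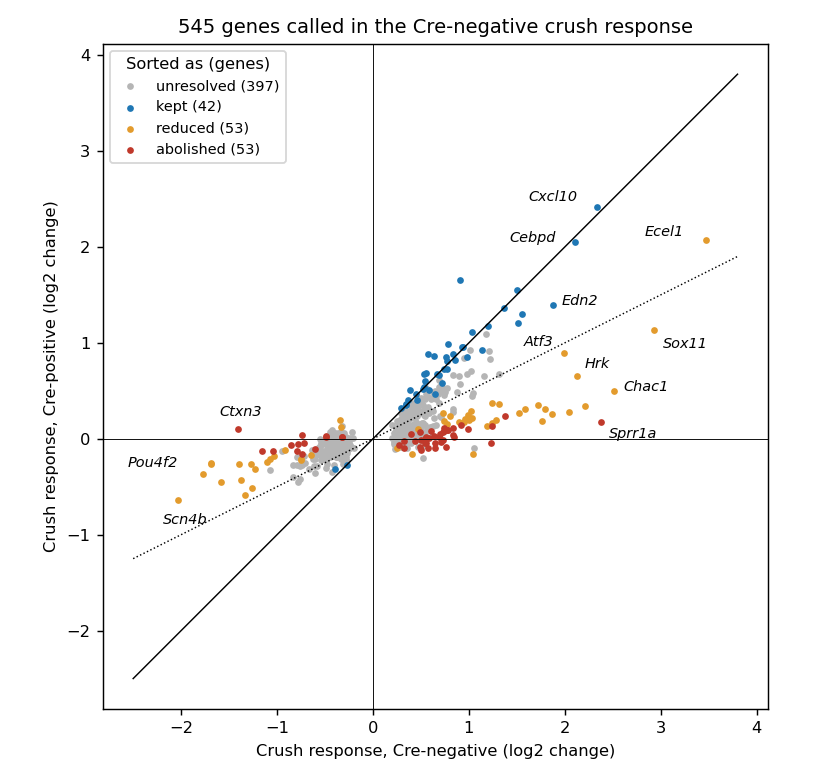
Crush response (log2 change, crushed minus uncrushed) in Cre-negative retinas on the x axis and in Cre-positive retinas on the y axis for the 545 genes called in Cre-negative retinas, 1 point a gene, coloured by class, with the solid line marking equal responses and the dotted line 0.5 of the Cre-negative response. Kept genes such as Cxcl10 and Cebpd lie near the solid line, and abolished genes such as Sprr1a and Ctxn3 lie near 0 on the y axis.

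Of the 53 reduced responses, 10 were still called in Cre-positive retinas in the same direction: the rises of Ecel1, Sox11, Atf3, Hrk, Colec10 and Amz1 and the falls of Scn4b, Fkbp1b, Tppp3 and Rbpms2, with Amz1 named after its values were seen. A further 38 had an interval that excluded 0 without a call, and 5 had an interval on the other side of 0, among them Stbd1, which encodes a glycogen-binding protein, at 1.04 in Cre-negative retinas and -0.16 in Cre-positive ones. The interaction was computed again within the 2 slides that held all 4 groups, 8 arrays with 1 of each group a slide. Over the 12 rises and 12 falls with the largest interactions, among genes that have a symbol and whose brightest group had a Cy5 signal clear of background on all its arrays, the value was -1.84 to -1.01 within slide 2 and -2.16 to -1.21 within slide 3 for the rises, and 0.76 to 1.86 and 0.86 to 1.73 for the falls. These genes were chosen on arrays that include the 8, so the within-slide values describe them and test nothing. Those 8 arrays alone gave 17 calls, all among the 106, and with slide as a block in all 17 arrays 101 genes were called, 90 of them shared. Because crushed retinas always took even positions on a slide and uncrushed ones odd positions, position and crush cannot be told apart within either genotype. On slides 2 and 3 each group also took the same position, so genotype and position cannot be told apart in the within-slide values. Slide 1 held only Cre-positive arrays and slide 5 held none.

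**Figure D2:**
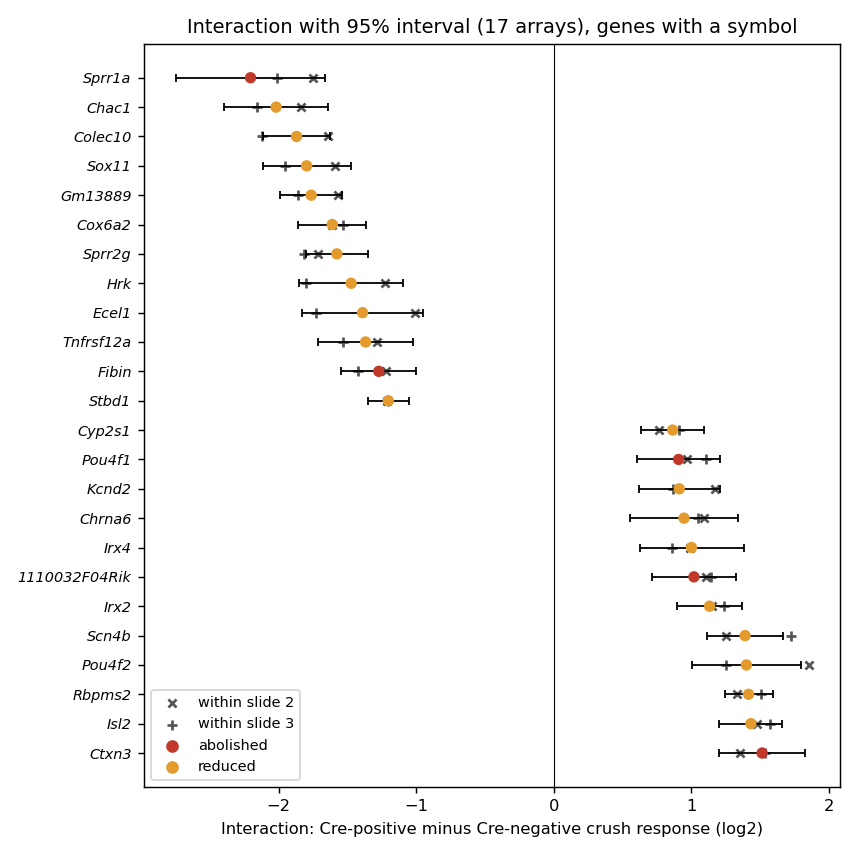
Interaction (log2, Cre-positive minus Cre-negative crush response) for the 12 rises and 12 falls with the largest values among genes that have a symbol and whose brightest group had a Cy5 signal clear of background on all its arrays, with the 95% interval over 17 arrays as bars and the values within slides 2 and 3 as crosses. The within-slide values are a description, since the 24 genes were chosen on arrays that include those slides.

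Several of the largest interactions were in genes known to rise in injured neurons. Sox11, a transcription factor of developing and regenerating neurons, was -1.03, -1.05, -1.01 and -0.99 on uncrushed and 1.97, 1.85 and 1.91 on crushed Cre-negative arrays. In Cre-positive retinas it was -0.89, -1.08, -0.99, -1.26 and -1.11 uncrushed and -0.08, -0.23, 0.11, 0.04 and 0.48 crushed. All Cre-positive crushed values lay above every uncrushed one and below every Cre-negative crushed one. The rise was 7.61-fold against 2.19-fold, with an interaction of -1.80 (SE 0.15, limma adjusted p = 2.8e-06; -1.59 within slide 2 and -1.95 within slide 3). A second Sox11 probe gave -1.76.

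Ecel1, a membrane peptidase of injured neurons, had the largest rise of any gene and kept the largest part of it among the reduced rises. It was 1.11, 1.15, 0.93 and 1.02 on uncrushed and 4.49, 4.55 and 4.51 on crushed Cre-negative arrays, then 0.97, 0.72, 0.95, 0.69 and 0.78 on uncrushed and 2.46, 2.50, 3.02, 3.18 and 3.32 on crushed Cre-positive ones. As with Sox11, the crushed groups did not overlap and the Cre-positive response was well clear of 0. The log2 changes were 3.47 and 2.08, so 59.9% of the change was left, and the interaction was -1.39 (SE 0.21, limma adjusted p = 0.0021). With the scanner software's processed signals the interaction was -0.69 and did not pass, while the Cy5 channel alone gave -2.95; the cause was not tested.

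Sprr1a, a small proline-rich protein that promotes axon growth, was sorted as abolished. Its values were -3.19, -3.34, -3.48 and -3.05 on uncrushed and -0.78, -0.77 and -1.11 on crushed Cre-negative arrays. On Cre-positive arrays they were -2.89, -2.91, -2.96, -2.02 and -3.17 uncrushed and -2.65, -2.95, -2.49, -2.58 and -2.40 crushed. Each Cre-negative crushed value was above all others, and the Cre-positive groups overlapped. Uncrushed replicate 4, the array highest in cornea genes, was the highest of its group. The interaction was the largest in this fit, at -2.21 (SE 0.26, limma adjusted p = 0.00013; -1.75 within slide 2 and -2.01 within slide 3). Without the arrays high in cornea and lens genes it was -2.07 (limma adjusted p = 2.9e-06). The Cre-negative arrays were the same in that fit, so the smaller size reflects a larger Cre-positive rise. The interval of that rise is not given here, so the label abolished holds only for the fit that includes uncrushed replicate 4. With processed signals the interaction was -2.82, below the size of Colec10 (-3.50) and Sprr2g (-3.43). With the Cy5 channel alone it was -2.81, below the size of Colec10 (-3.43), Sprr2g (-3.40) and Ecel1 (-2.95). Sprr2g, of the same family, rose by 1.76 in Cre-negative retinas and gave 0.19 in Cre-positive ones (interaction -1.58, limma adjusted p = 1.3e-07). It was not well above background on any uncrushed Cre-positive array and its Cy5 signal was higher on the crushed ones by at least 1.12-fold, with 2 of the 5 well above background.

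In the list of axon regeneration-associated genes, 8 of 33 tested had an interaction below 0 and 0 above (10 and 0 at an unadjusted p under 0.05 in limma), 15 rose and 1 fell after crush in Cre-negative retinas, and 7 rose in Cre-positive ones. The median interaction of the list was -0.18. Sox11, Ecel1 and Sprr1a were joined by Atf3, a stress-induced partner of JUN, at 1.99 and 0.90 (interaction -1.09, SE 0.14, limma adjusted p = 0.00032), and by Klf6, a growth-promoting zinc finger factor, at 0.77 and 0.09 (limma adjusted p = 0.0013). Hspb1, a small heat shock protein, was just inside the threshold, at 0.49 and -0.09, and lost its call in 18 of 30 alternatives. The neuropeptide genes Adcyap1 (1.38 and 0.24) and Nts (0.73 and 0.08), named after their values were seen, were also abolished. Other peptide genes of the same list were not: Gal, which encodes galanin, was kept at 0.86 and 0.82, and Crh, which encodes corticotropin-releasing hormone, was kept at 1.51 and 1.21. Gap43, a growth cone protein, passed in neither response and had an interaction of -0.32 (95% interval -0.60 to -0.03, limma adjusted p = 0.55).

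Of 15 ATF4-CHOP stress genes tested, 9 rose after crush in Cre-negative retinas and 1 in Cre-positive ones, 5 had an interaction below 0 and 0 above (7 and 1 at an unadjusted p under 0.05 in limma), and the list's median interaction was -0.42. Over all genes 1.34% and 0.67% rose, and 0.284% were called lower in the interaction. Ddit3 was -0.41, -0.69, -0.49 and -0.37 on uncrushed and 0.31, 0.33 and 0.24 on crushed Cre-negative arrays, and -0.75, -0.44, -0.47, -0.47 and -0.54 on uncrushed and -0.40, -0.44, -0.63, -0.29 and -0.45 on crushed Cre-positive arrays. Its 3 Cre-negative crushed values were the highest of the 17, and the Cre-positive groups overlapped. The rise of 0.78 became 0.09 (interaction -0.69, SE 0.12, limma adjusted p = 0.0055), and the response was sorted as abolished.

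Chac1, an enzyme that breaks down glutathione and a target of ATF4 and CHOP, was -3.42, -3.50, -3.46 and -3.39 on uncrushed and -0.77, -1.04 and -0.97 on crushed Cre-negative arrays. In Cre-positive retinas it was -3.30, -3.46, -3.34, -2.87 and -3.45 uncrushed and -3.0, -3.11, -2.66, -2.56 and -2.60 crushed. The highest uncrushed Cre-positive value, on replicate 4, lay within the crushed range, and the crushed groups of the genotypes were far apart. Its rise was 5.71-fold against 1.41-fold (interaction -2.02, SE 0.18, limma adjusted p = 4.5e-06; -1.84 within slide 2 and -2.16 within slide 3). The stress-induced cytokine gene Gdf15 (1.18 and 0.13), the transcription factor gene Atf5 (1.32 and 0.36) and the pseudokinase gene Trib3 (0.99 and 0.25) were also reduced, at limma adjusted p of 2.8e-06, 0.00089 and 0.0023. Atf4 itself, named after its values were seen, gave 0.63 and 0.21 and was unresolved (interaction -0.42, limma adjusted p = 0.5). Nupr1, a stress-induced chromatin protein likewise named afterwards, was the 1 gene of the list that rose in Cre-positive retinas, at 1.21 and 0.92, and was unresolved as well.

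Of 24 genes of amino acid synthesis, transport and tRNA charging tested, 16 rose in Cre-negative retinas and 0 in Cre-positive ones (8 at an unadjusted p under 0.05 in limma), and 6 had an interaction below 0 and 0 above (14 and 0 at an unadjusted p under 0.05 in limma), with a list median of -0.21. Of all genes tested, 1.34% and 0.67% rose and 0.284% were called lower in the interaction. Asns, which makes asparagine, was -1.65, -1.59, -1.66 and -1.75 on uncrushed and -0.70, -0.77 and -0.67 on crushed Cre-negative arrays, against -1.40, -1.61, -1.55, -1.60 and -1.57 and -1.46, -1.47, -1.33, -1.42 and -1.16 on Cre-positive ones. The Cre-positive groups overlapped and lay wholly below the Cre-negative crushed group. The changes were 0.95 and 0.18 (interaction -0.77, SE 0.10, limma adjusted p = 0.00025). Phgdh, the first enzyme of serine synthesis, went from 0.70 to 0.05 and was abolished, with a second probe at an interaction of -0.72. Mthfd2, of mitochondrial folate metabolism (0.74 and 0.08), the amino acid transporter gene Slc7a3 (0.65 and -0.09) and the seryl-tRNA synthetase gene Sars (0.49 and 0.07) were abolished. The transporter gene Slc7a1 (0.76 and -0.08), named after its values were seen, was abolished too. The ER chaperone and XBP1-ATF6 list, which marks the other arms of the unfolded protein response, had 1 of 17 rise in Cre-negative retinas and 0 in the interaction (4 at an unadjusted p under 0.05 in limma), with a median interaction of 0.02.

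ATF4 with a C/EBP partner binds the C/EBP-ATF response element, here searched as TGATGNAA on both strands in a window of 250 bases before to 50 after each RefSeq start (GRCm38.p6). It was found in 8 of 44 genes with abolished or reduced rises that had a window (18.2%), against 3.19% of the 13284 tested genes with a window and 4.51% of all 27025 genes with one. By class it was in 2 of 25 abolished rises (8.0%) and 6 of 19 reduced rises (31.6%), classes that differ in precision as well as in the share left. Among kept rises it was found in 2 of 27 (7.41%), a share close to that of the abolished ones. AP-1 sites, searched as TGANTCA, were in 8 of 44 (18.2%) and 4 of 27 (14.8%), against 7.05% of tested genes with a window. The 250 bases before the start are printed below, 5′ to 3′ on the gene's strand, with the match in capitals, for 4 genes with TGATGNAA or its complement (Chac1, Asns, Atf3 and Hrk) and 2 with AP-1 letters (Ddit3 and Sprr1a), since these genes had lost most of their rise. A match describes letters in the window and does not show that a factor binds there.
Chac1, chr2:119350992-119351241, plus strand: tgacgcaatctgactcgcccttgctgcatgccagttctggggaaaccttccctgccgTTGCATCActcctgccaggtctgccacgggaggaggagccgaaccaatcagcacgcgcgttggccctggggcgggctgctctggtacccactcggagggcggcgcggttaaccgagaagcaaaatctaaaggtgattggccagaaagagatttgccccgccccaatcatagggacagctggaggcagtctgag
Asns, chr6:7693210-7693459, minus strand: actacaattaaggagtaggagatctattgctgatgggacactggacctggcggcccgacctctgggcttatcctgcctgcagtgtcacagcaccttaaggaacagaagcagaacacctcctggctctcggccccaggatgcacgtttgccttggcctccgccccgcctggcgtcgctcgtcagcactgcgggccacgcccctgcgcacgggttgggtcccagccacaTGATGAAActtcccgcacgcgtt
Atf3, chr1:191183334-191183583, minus strand: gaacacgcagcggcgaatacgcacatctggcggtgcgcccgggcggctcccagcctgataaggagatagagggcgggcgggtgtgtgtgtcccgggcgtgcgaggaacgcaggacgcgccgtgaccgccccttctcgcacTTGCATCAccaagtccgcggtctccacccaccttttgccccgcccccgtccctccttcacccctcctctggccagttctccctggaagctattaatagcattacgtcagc
Hrk, chr5:118169514-118169763, plus strand: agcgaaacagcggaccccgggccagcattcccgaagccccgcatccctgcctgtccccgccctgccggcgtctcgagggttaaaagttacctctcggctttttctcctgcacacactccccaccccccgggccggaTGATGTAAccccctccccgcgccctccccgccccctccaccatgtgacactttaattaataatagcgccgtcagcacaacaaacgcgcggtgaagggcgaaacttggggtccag
Ddit3, chr10:127290543-127290792, plus strand: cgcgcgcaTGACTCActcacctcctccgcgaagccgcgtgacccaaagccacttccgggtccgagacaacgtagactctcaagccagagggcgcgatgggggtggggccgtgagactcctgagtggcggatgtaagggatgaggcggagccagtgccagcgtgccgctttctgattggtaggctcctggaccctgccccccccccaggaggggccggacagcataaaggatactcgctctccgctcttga
Sprr1a, chr3:92485882-92486131, minus strand: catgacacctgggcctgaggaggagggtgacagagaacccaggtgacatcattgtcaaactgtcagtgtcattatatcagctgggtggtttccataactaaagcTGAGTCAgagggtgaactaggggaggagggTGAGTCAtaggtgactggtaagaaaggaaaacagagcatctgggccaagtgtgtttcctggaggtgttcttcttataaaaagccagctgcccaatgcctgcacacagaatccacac

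Hrk, a BH3-only activator of apoptosis that JNK signalling induces in neurons, was 0.80, 0.70, 0.75 and 0.98 on uncrushed and 2.98, 2.89 and 2.94 on crushed Cre-negative arrays, and 0.47, 0.95, 0.65, 0.73 and 0.73 on uncrushed and 1.15, 1.28, 1.07, 1.83 and 1.48 on crushed Cre-positive arrays. The crushed groups did not overlap, and neither did the Cre-positive groups. The rise of 2.13 became 0.66 (interaction -1.47, SE 0.18, limma adjusted p = 0.00022). With processed signals the interaction was -0.67 and did not pass, and the Cy5 channel alone gave -2.37; the cause was not tested. Tnfrsf12a, the TWEAK receptor, went from 1.72 to 0.35 (limma adjusted p = 0.00018). These were the 2 of 23 cell death genes called in the interaction, while 7 rose in Cre-negative retinas and 4 in Cre-positive ones, and the list median was -0.07. Over all genes 0.418% were called in the interaction, and 1.34% and 0.67% rose. Bbc3, which encodes the BH3-only protein PUMA, gave 0.75 and 0.49 and an interaction of -0.26 that did not pass (95% interval -0.51 to -0.02, limma adjusted p = 0.57). Of 16 p53 targets 1 was called, Cdkn1a, which encodes the cell cycle inhibitor p21, at 0.99 and 0.10 (limma adjusted p = 0.0058). A second, dimmer Cdkn1a probe had an interaction of -0.14, and the mean over both probes was -0.51. The call was lost with processed signals and with the Cy5 channel alone (-1.14 in both).

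Of 16 genes of the DLK-JNK list 1 was called, Tnik, which encodes a kinase upstream of JNK, at 0.50 and -0.01 (interaction -0.51, limma adjusted p = 0.021), and it did not pass with slide as a block. The list median was 0.06. Of 16 AP-1 and CREB-ATF genes 7 rose in Cre-negative retinas and 3 in Cre-positive ones, and Atf3 was the 1 called in the interaction, with a list median of -0.23. Jun, the main substrate of JNK, was -2.01, -1.92, -1.96 and -1.59 on uncrushed and -0.98, -1.52 and -0.80 on crushed Cre-negative arrays, against -2.22, -1.28, -2.0, -1.81 and -2.06 and -1.44, -1.41, -2.09, -1.14 and -1.56 on Cre-positive ones. Its Cre-positive groups overlapped, and its spread was wide. The interaction was -0.43 (95% interval -1.03 to 0.18, limma adjusted p = 0.72). Among 13 activity-induced genes Klf6 and Arc, a synaptic cytoskeletal gene (0.54 and -0.04, limma adjusted p = 0.0032), were abolished, and the list median was -0.14. MAPK phosphatase and feedback genes had 4 of 14 rise in Cre-negative retinas and 0 in Cre-positive ones (4 at an unadjusted p under 0.05 in limma), with 0 in the interaction (2 at an unadjusted p under 0.05 in limma) and a median of -0.15.

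Several of the largest interactions were in genes with no part in the lists. Colec10, a collectin, was 1.81, 1.74 and 1.88 on crushed and -0.49, -0.36, -0.30 and -0.45 on uncrushed Cre-negative arrays, and 0.02, 0.12, -0.17, 0.21 and 0.16 on crushed and -0.44, -0.11, -0.19, -0.33 and -0.27 on uncrushed Cre-positive ones. Only the Cre-negative crushed arrays stood clear of the rest. It was not well above background on any uncrushed array, so crush raised its Cy5 signal by at least 4.81-fold without Cre and by at least 1.34-fold with it. Its interaction was -1.87 (limma adjusted p = 3.5e-08), and -3.50 with processed signals. Gm13889 (2.04 and 0.28), the muscle-type cytochrome oxidase subunit gene Cox6a2 (1.86 and 0.25) and the secreted protein gene Fibin (1.23 and -0.04) had interactions of -1.76, -1.61 and -1.27 (limma adjusted p = 3.5e-08, 3.8e-07 and 2.1e-05). Of the 88 called genes with a symbol, 50 were in no list. Among those named after their values were seen, Srxn1, which encodes the antioxidant enzyme sulfiredoxin, gave 1.24 and 0.14, the matrix protease gene Mmp12 1.03 and 0.28, the neuropeptide gene Ucn 1.0 and 0.20, and S100a10 0.73 and -0.01.

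Of 42 genes in the lists of ganglion cell transcription factors and other ganglion cell markers, 21 fell after crush in Cre-negative retinas and 5 in Cre-positive ones, and 12 had an interaction above 0 with 0 below. At an unadjusted p under 0.05 in limma 7 factors and 13 other markers were above 0, and 0 and 1 below. The median interaction was 0.19 for the 18 factors and 0.32 for the 24 other markers. In whole retina, fewer ganglion cells and less RNA per ganglion cell cannot be told apart.

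Pou4f2, the Brn3b factor that specifies most ganglion cells, was 4.44, 4.97, 4.06 and 4.23 on uncrushed and 2.62, 2.72 and 2.63 on crushed Cre-negative arrays. On Cre-positive arrays it was 4.86, 4.55, 4.74, 4.61 and 4.79 uncrushed and 4.18, 4.33, 4.48, 4.33 and 4.38 crushed. Every Cre-positive crushed value was above every Cre-negative crushed one and below the Cre-positive uncrushed ones. The changes were -1.77 and -0.37 (interaction 1.40, SE 0.19, limma adjusted p = 0.00065). With processed signals the interaction was 0.30 and did not pass; the cause was not tested.

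Isl2, a LIM homeodomain factor of ganglion cells, was 2.70, 2.76, 2.61 and 2.83 on uncrushed and 1.13, 1.05 and 0.94 on crushed Cre-negative arrays, against 2.62, 2.58, 2.81, 2.64 and 2.78 and 2.45, 2.42, 2.65, 2.37 and 2.28 on Cre-positive ones. Its Cre-negative crushed values were far below the other 14, and the Cre-positive groups overlapped. The fall of -1.69 became -0.25 (interaction 1.43, SE 0.11, limma adjusted p = 6.2e-07). Pou4f1, the related Brn3a factor, was 2.13, 2.54 and 2.15 on crushed Cre-negative arrays and 3.01, 3.09, 3.20, 3.0 and 3.20 on crushed Cre-positive ones, the latter overlapping their uncrushed group. Its fall of -1.04 became -0.13 and was sorted as abolished (interaction 0.91, limma adjusted p = 0.0031), with no call from processed signals. The Iroquois factors Irx2 (-1.40 and -0.26) and Irx4 (-1.27 and -0.27) were reduced, though a dimmer Irx2 probe had an interaction of 0.03, and Irx4 lost its call with processed signals (1.64, limma adjusted p = 0.26).

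Among the other markers, Rbpms2, an RNA-binding protein of ganglion cells, was 2.38, 2.48, 2.30 and 2.36 on uncrushed and 0.72, 0.65 and 0.71 on crushed Cre-negative arrays, and 2.44, 2.33, 2.46, 2.28 and 2.42 on uncrushed and 2.20, 2.14, 2.20, 2.05 and 2.01 on crushed Cre-positive arrays. The 4 groups were tight, and no Cre-positive crushed value reached either neighbouring group. Its interaction of 1.42 (SE 0.08, limma adjusted p = 3.5e-08) had one of the smallest adjusted p-values. Ctxn3, a small membrane protein gene, fell by 1.41 in Cre-negative retinas and gave 0.11 in Cre-positive ones (interaction 1.52, limma adjusted p = 1.6e-05). Fkbp1b, a regulator of calcium release (-1.33 and -0.58; the interaction of a second probe was 0.32), the tubulin-binding protein gene Tppp3 (-1.26 and -0.51) and the nicotinic receptor subunit gene Chrna6 (-1.38 and -0.43) were reduced. The call for Chrna6 was lost in 8 of 30 alternatives, processed signals among them, and the interaction of Ctxn3 was 2.36 with the Cy5 channel alone. Nrn1, named after its values were seen, was reduced too (-0.65 and -0.17).

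Widely used ganglion cell markers did not all pass. Thy1, a surface glycoprotein, gave -0.44 and -0.14 (interaction 0.29, 95% interval 0.13 to 0.46, limma adjusted p = 0.17). Rbpms gave -0.62 and -0.28 (interaction 0.34, limma adjusted p = 0.38), and the interactions of its 3 probes lay between 0.06 and 0.34. Nefl, the light neurofilament, gave -0.60 and -0.36 and was called in both responses but not in the interaction (0.24, limma adjusted p = 0.41), which had the opposite sign, -0.34, with processed signals. All 3 genes were unresolved.

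Ion channel subunits of ganglion cells had 2 of 21 called higher, against 0.134% of all genes tested, with a list median of 0.15. Scn4b, a sodium channel beta subunit, was 2.35, 2.02, 2.07 and 2.36 on uncrushed and 0.20, 0.14 and 0.16 on crushed Cre-negative arrays, against 2.39, 2.50, 2.56, 2.76 and 2.40 and 2.07, 1.97, 1.83, 1.75 and 1.78 on Cre-positive ones. Both crushed groups lay below their uncrushed groups, and the fall was -2.03 against -0.64 (interaction 1.39, SE 0.13, limma adjusted p = 1.0e-05). Kcnd2, a potassium channel subunit, went from -1.23 to -0.32 (interaction 0.91, limma adjusted p = 0.0023) and lost its call with processed signals (1.46, limma adjusted p = 0.75). The interaction of Scn4b was 2.19 with the Cy5 channel alone. The other named falls with large interactions were 1110032F04Rik (-1.15 and -0.13, abolished) and the cytochrome P450 gene Cyp2s1 (-1.08 and -0.21, reduced), and Pvalb, which encodes parvalbumin and was named after its values were seen, gave -1.10 and -0.24. With processed signals the interaction of 1110032F04Rik was 2.60 in place of 1.02 and was not called (limma adjusted p = 0.2).

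**Figure D3:**
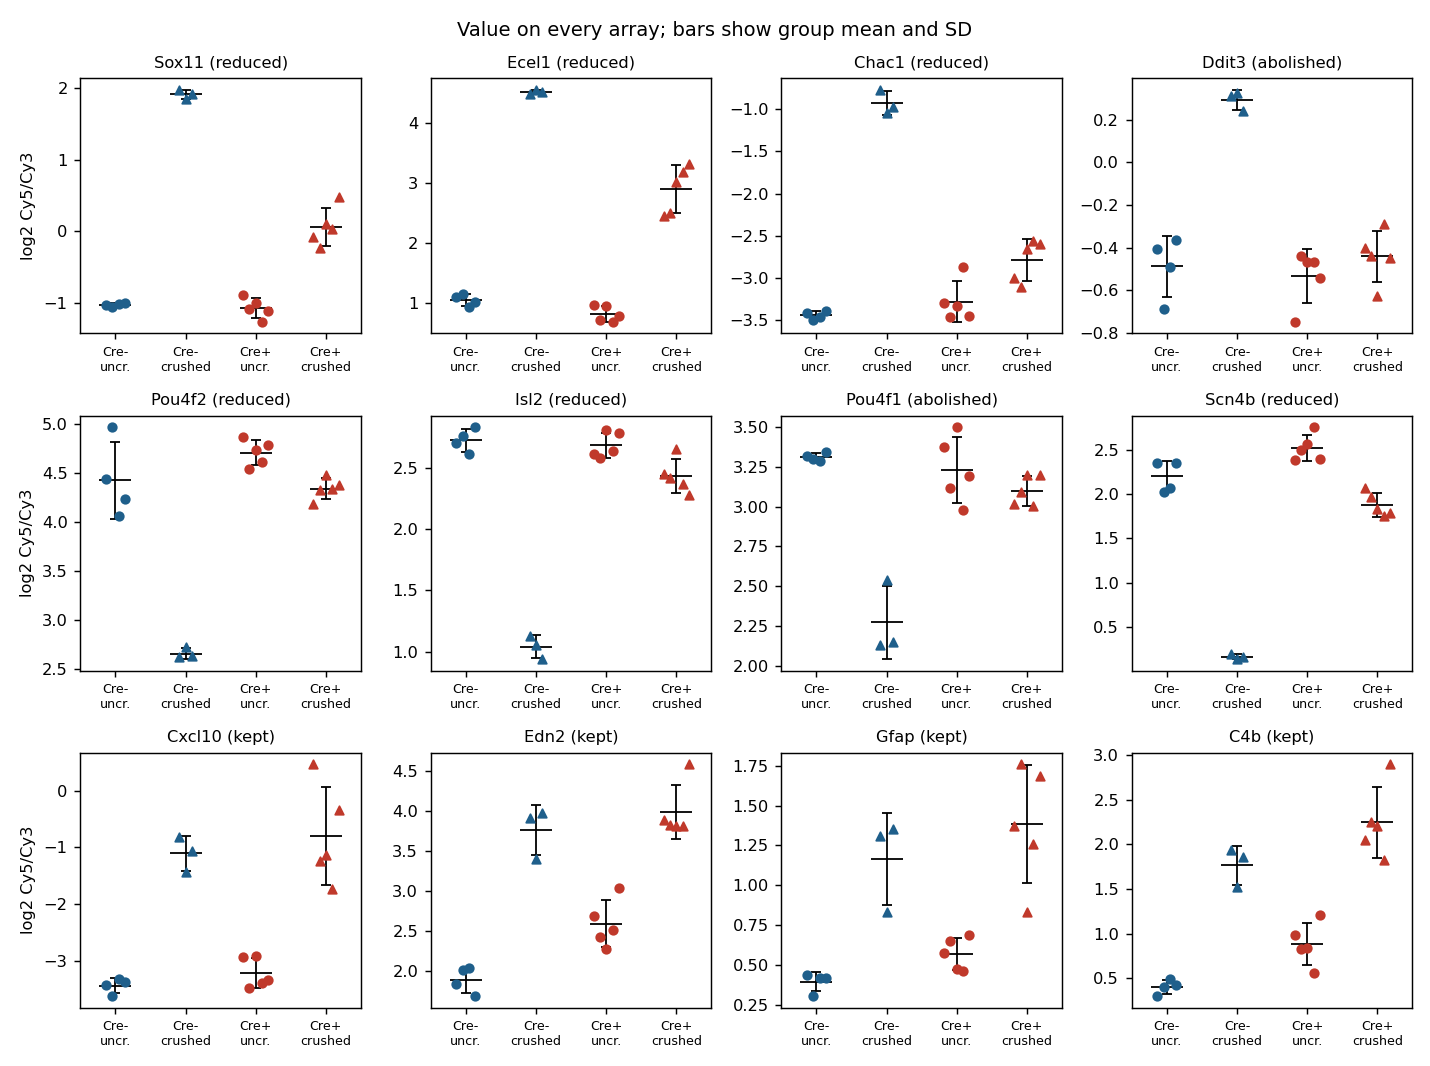
Log2 Cy5/Cy3 ratio of 12 genes on every array, 1 symbol an array, for Cre-negative (blue) and Cre-positive (red) retinas, uncrushed (circles) and crushed (triangles), with the group mean and SD as bars and a separate y axis for each gene. In the top and middle panels the Cre-negative crushed arrays stand away from the other 3 groups, and in the bottom panels (Cxcl10, Edn2, Gfap and C4b) the crushed groups of both genotypes overlap.

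The 42 kept genes were 0.166% of those tested. They included 3 of 20 genes in the reactive gliosis list, 3 of 20 in the microglia and macrophage list, 3 of 33 in the axon regeneration list, 2 of 18 chemokines, 2 of 15 complement genes, 2 of 17 gp130-STAT3 genes, 1 of 28 interferon genes and 1 of 15 Müller glia genes, and a gene may be in more than 1 list. Cxcl10, an interferon-induced chemokine, was -3.43, -3.63, -3.33 and -3.37 on uncrushed and -0.82, -1.43 and -1.06 on crushed Cre-negative arrays, and -2.93, -3.48, -2.93, -3.40 and -3.34 on uncrushed and 0.47, -1.25, -1.13, -1.74 and -0.33 on crushed Cre-positive arrays. Crushed arrays were above uncrushed ones in both genotypes, and the crushed groups overlapped. The changes were 2.34 and 2.42, and the interaction was 0.08 with a 95% interval of -0.87 to 1.03 (limma adjusted p = 0.98). That interval is wide, and with processed signals the Cre-positive rise was 4.40 for Cxcl10 and 2.21 for Ccl12.

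Gfap, the intermediate filament of reactive glia, was 0.44, 0.31, 0.42 and 0.42 on uncrushed and 1.31, 0.84 and 1.35 on crushed Cre-negative arrays, against 0.58, 0.65, 0.48, 0.47 and 0.69 and 1.37, 1.76, 0.84, 1.26 and 1.69 on Cre-positive ones. In each genotype the crushed arrays were higher with no overlap. The changes were 0.77 and 0.81 (interaction 0.04, 95% interval -0.41 to 0.49), and the Cre-positive rise was not called with processed signals or the Cy5 channel alone. Edn2, a peptide of stressed photoreceptors that acts on glia, was kept at 1.87 and 1.39 (interaction -0.48, 95% interval -1.01 to 0.05). Without the arrays high in cornea and lens genes the Cre-positive rise was 1.22 for Edn2, 1.61 for Cebpd and 2.26 for Cxcl10. Kept means more than 0.5 of the response by its interval and not an equal one.

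The complement gene C4b (1.37 and 1.36), the transcription factor gene Cebpd (2.10 and 2.05), the NF-kappa-B cofactor gene Bcl3 (1.50 and 1.55), the chemokine gene Ccl12 (1.56 and 1.30), the interferon-induced GTPase gene Gbp2 (0.98 and 0.86) and the microglial gene Aif1 (0.84 and 0.89) were kept. Lrrc2, Tnnt2 and Gm833 were kept as well, but the mean over 3 Gm833 probes put its Cre-positive rise at 0.48. The 12 kept rises with the largest Cre-negative responses, under the same condition on symbol and signal, had interactions of -0.48 to 0.08, and their crushed groups overlapped between genotypes in all 12. Within slide 2, which holds the array high in lens genes, these interactions were -0.08 to 1.22, and within slide 3 they were -0.76 to 1.40. Since the kept rule uses both responses, these values and the overlap describe the chosen genes and test nothing. Of the kept genes named outside these 12, Ctss and Elavl2 had crushed groups that did not overlap, and Aif1, Gfap and C1qc had groups that did. That too is a description, without the share over all genes beside it. Elavl2, an RNA-binding protein of neurons, was the only fall with a symbol sorted as kept (-0.39 and -0.31). Without the arrays high in cornea and lens genes 26 of the 42 kept genes were still sorted so, and 42 of the 53 abolished and 42 of the 53 reduced genes were.

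**Figure D4:**
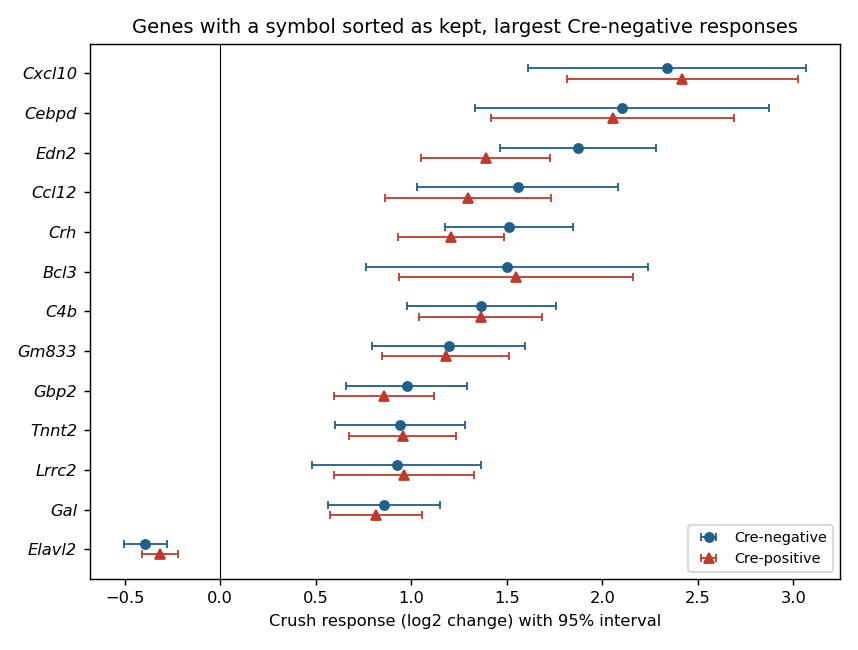
Crush response (log2 change) with its 95% interval in Cre-negative (blue circles) and Cre-positive (red triangles) retinas for 13 genes sorted as kept, the 12 rises with the largest Cre-negative response among genes that have a symbol and whose brightest group had a Cy5 signal clear of background on all its arrays, and the 1 fall with a symbol. The intervals of the genotypes overlap for each of the 13 genes, which is a description, since the kept rule uses both responses.

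Interferon-stimulated response elements, searched as TTTC, any 2 bases and TTTC again on both strands, were in the windows of 5 of 27 kept rises (18.5%: Aif1, Ctss, Cxcl10, Gbp2 and H2-T23, the last named after its values were seen) and of 1 of 44 abolished or reduced rises (2.27%), against 3.75% of tested genes with a window. STAT letters (TTCNNNGAA) were in 11.1% and 6.82%, against 8.63%, and the cyclic AMP element TGACGTCA in 0 of 27 and in 1 of 44 (2.27%), against 3.08%. The 250 bases before the RefSeq start (GRCm38.p6) are printed for 2 kept genes that hold the interferon element, with the match in capitals, for comparison with those of the reduced stress genes. Both also hold AP-1 letters (TGAGTCA), which are left in lower case here.
Cxcl10, chr5:92348890-92349139, minus strand: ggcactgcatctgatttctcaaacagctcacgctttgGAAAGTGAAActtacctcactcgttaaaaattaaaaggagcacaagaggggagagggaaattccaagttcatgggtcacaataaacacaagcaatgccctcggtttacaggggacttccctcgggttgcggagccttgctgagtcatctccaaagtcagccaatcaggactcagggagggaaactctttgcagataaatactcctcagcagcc
Gbp2, chr3:142620413-142620662, plus strand: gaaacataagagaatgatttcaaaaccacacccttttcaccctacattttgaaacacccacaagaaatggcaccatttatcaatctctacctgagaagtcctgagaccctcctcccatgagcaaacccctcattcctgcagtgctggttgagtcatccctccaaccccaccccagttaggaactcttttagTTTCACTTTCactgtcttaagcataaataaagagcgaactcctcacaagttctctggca

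No list of glial or immune genes had more than 1 member called in the interaction. Of all genes tested 0.418% were called, so a count of 0 in lists of this size does not set them apart. Interferon-induced and antigen presentation genes had 0 of 28 (2 at an unadjusted p under 0.05 in limma), with a median response of 0.40 in both genotypes and a median interaction of -0.03. Microglia and macrophage markers had 0 of 20 (0 at an unadjusted p under 0.05 in limma), complement genes 0 of 15 (2), chemokines 0 of 18 (4), gp130 cytokine and STAT3 genes 0 of 17 (4) and cholesterol synthesis genes 0 of 20 (2). Reactive gliosis genes had 1 of 20, Hspb1. From microglia to gliosis the median interactions were 0.04, 0.17, 0.07, -0.10, 0.01 and 0.02 in that order, beside 0.0027 over all genes. Of 15 complement genes 2 rose in Cre-negative retinas and 7 in Cre-positive ones, against 1.34% and 0.67% of all genes tested. The mean complement score of the Cre-positive crushed arrays ran from 0.13 to 0.70, with replicate 5, the array high in lens genes, at the top. The part of that array in these counts was not tested.

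The lists of the other retinal cells gave no call. Over 9 lists of rod, cone, bipolar, amacrine, horizontal, Müller glia, astrocyte and oligodendrocyte, vascular and red blood cell genes, 0 of 100 genes tested were called in the interaction, and 9 had an unadjusted p under 0.05 in limma. Over all 25358 genes tested, 106 (0.418%) were called and 2124 had an unadjusted p under 0.05 in limma. Neither count therefore sets these lists apart from all genes. The list medians ran from -0.07 to 0.09. Of tissues next to the retina, lens crystallins had 0 of 12 called, pigment epithelium markers 0 of 12 and the list for cornea, iris and ciliary body 0 of 7, each with 0 at an unadjusted p under 0.05 in limma. Their median interactions were 0.27, 0.33 and -0.72. The cornea list score was -0.29 to 2.0 on Cre-positive uncrushed arrays and -0.26 to 0.11 on all others, and the lens score -0.16 to 1.19 on Cre-positive crushed arrays. The pigment epithelium score was -0.39 to 0.05 on uncrushed and -0.58 to -0.27 on crushed Cre-negative arrays. On Cre-positive arrays it was -0.38 to 0.72 uncrushed and -0.42 to 0.72 crushed. The crushed groups did not overlap for Dct, Mlana and Tyrp1 and did for Best1 and Ttr. The share of all genes with crushed groups apart was not computed, so this describes the named genes only. The part of pigment epithelium in the interaction was not tested.

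**Figure D5:**
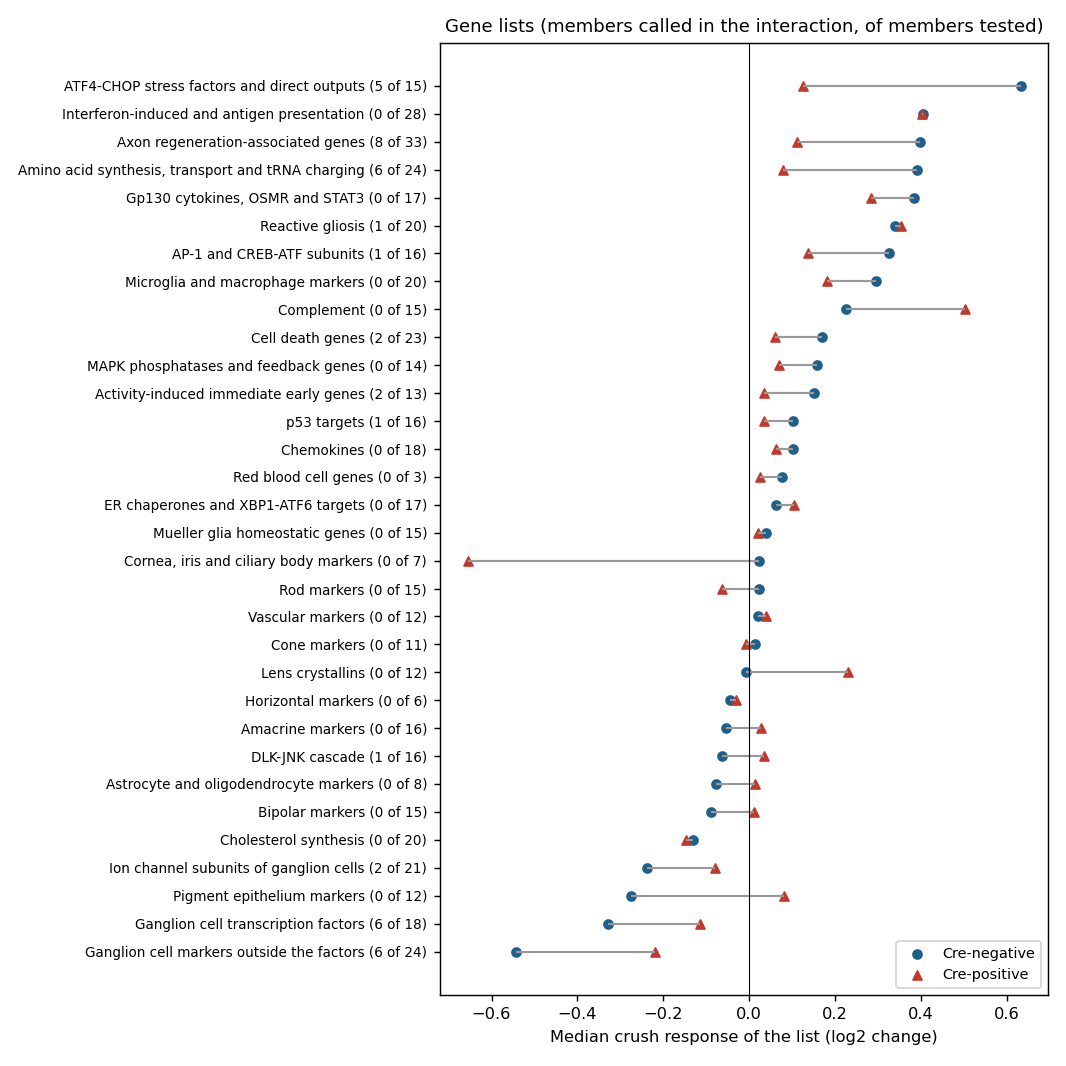
Median crush response (log2 change) of 32 gene lists in Cre-negative (blue circles) and Cre-positive (red triangles) retinas, with the number of members called in the interaction, of those tested, after each name. The ATF4-CHOP list has its median at 0.63 and 0.13, the other ganglion cell markers at -0.54 and -0.22, and the interferon list at 0.40 and 0.40.

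The interaction can come from either the uncrushed or the crushed side. In uncrushed retinas the Cre effect was called for 3 genes (0.0118%), Esr1, Lmod3 and 1 probe without a symbol, none of them in the interaction. In crushed retinas it was called for 299 (1.18%). The median Cre effect in uncrushed retinas was 0.07 for abolished rises, 0.06 for reduced rises, 0.04 for abolished falls and 0.05 for reduced falls. In crushed retinas the same medians were -0.59, -0.99, 0.71 and 0.96. These effects share arrays with the interaction and are given as a description of where the groups differed.

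Most of the crush response could not be placed. Of the 397 unresolved genes, 45 were called in Cre-positive retinas too, 80 lay below 0.5 of the Cre-negative response by their interval without an interaction call, and 272 met neither condition. Their median share left was 34.5% for rises and 24.8% for falls. These genes were picked by their Cre-negative call, which favours large Cre-negative values, and the kept genes were taken out. The shares therefore describe the class and test nothing. Stat3, the transcription factor downstream of gp130 cytokines, is one example, at 0.98 and 0.67 with an interaction of -0.31 (95% interval -0.75 to 0.12). A second Stat3 probe gave 0.43 and 0.39, with an interaction of -0.04. Of the 192 genes called in Cre-positive retinas, 95 (84 rises and 11 falls) were not called in Cre-negative ones, and 0 of these were called in the interaction.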

How the data were processed

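RNA of whole mouse retinas was hybridised to 18 Agilent 2-colour arrays, with the retina in Cy5 and a universal mouse reference in Cy3. The deposited scanner files hold the intensity of each spot in both channels, per the file headers from Feature Extraction 10.7.3.1, and the authors' deposited value table gives log2 ratios, whose scale and direction were settled by setting each array's column against its scanner values (column medians 0.0151 to 0.02375), and which served as an alternative. The submitters' processing notes name limma without a version. Median spot and local background intensity were corrected with normexp (offset 50), normalised within each array by loess and turned into log2 ratios, and spots of a probe were averaged. Probes with Cy5 well above background on at least 3 of 17 arrays were kept, 1 per gene (the brightest). Accessions were named through RefSeq, and 16777 of the 25358 genes tested had a symbol. A group-means model was fitted with limma 3.58.1 in R 4.3.3 (files read with the data.table package, 1.17.8), with Benjamini-Hochberg adjustment over all genes at 0.05, and the script was tested on simulated data. The 48 missing gene values were left out of the fit of their gene. 1 array whose labels disagree entered no comparison.

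The members, the 32 gene lists (520 of 548 entries tested, 13 symbols updated) and the sorting rule were chosen with earlier results of these data known. Genes named are the 12 rises and 12 falls with the largest interactions among abolished or reduced genes and the 12 rises and the falls with the largest Cre-negative responses among kept genes, in both cases among genes that have a symbol and whose brightest group had a Cy5 signal clear of background on all its arrays. Also named are the 5 members of each list (or fewer) lowest in adjusted p, and a set of genes of known interest. The labels do not tie arrays to animals. Other background corrections, normalisations, filters, probe rules, thresholds, slide blocks and sets of arrays were tried, and the array-quality exclusion was added after seeing the data.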

Additional observations from a re-analysis of the deposited data

Results flagged for a closer look

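The interaction itself is a difference of effects between genotypes, with 106 genes called by its own test. In a search of 50 named genes for a sample far from the rest of its group, 150 groups of 4 or 5 arrays gave 10 such samples, and chance gives about 1 in 20 groups. Cre-positive crushed replicate 5, the array high in lens genes, was the highest of its group for Cebpd (1.51, nearest 0.0252), Edn2 (4.58, nearest 3.89) and Gm833 (3.41, nearest 2.55). Cre-positive uncrushed replicate 4, the array highest in cornea genes, was the highest for Chac1 (-2.87, nearest -3.3) and Sprr1a (-2.02, nearest -2.89). Cre-negative uncrushed replicate 1 was the lowest for Cebpd (-2.31, nearest -1.78) and the highest for Gbp2 (-1.77, nearest -1.96). The other 3 were Ctxn3 on Cre-positive crushed replicate 3 (2.98, nearest 2.58), Gfap on Cre-negative uncrushed replicate 2 (0.307, nearest 0.421) and Sprr2g on Cre-positive uncrushed replicate 1 (-2.19, nearest -2.41).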

How the results depend on the processing

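Of 187 values given for single genes, 25 had the opposite sign under at least 1 alternative, and 0 of those were among the 58 called. Nefl was one, with an interaction of -0.34 with processed signals. With the scanner software's processed signals 69 genes were called in the interaction (34 abolished, 35 reduced, 24 genes of the lists), and 20.3% of them were higher, against 32.1%. Array weights gave 1174 Cre-negative calls and 81 abolished responses. At an adjusted p of 0.01 there were 283 Cre-negative and 70 Cre-positive calls, 34 abolished and 25 kept, and at 0.10 there were 865 and 320 calls. Asking for more than 0.33 of the response left 90 kept, and for 0.67 left 12. The 8 arrays of the slides with all 4 groups gave 17 interaction, 148 Cre-negative and 16 Cre-positive calls, with 3 abolished, 14 reduced, 18 kept and 7 list genes. That alternative has fewer samples. Without both arrays high in cornea or lens genes, a setting chosen after seeing the data, Cre-positive calls fell to 120. For the rest the cause was not tested. Leaving out 1 array at a time gave 81 to 121 interaction calls, 330 to 679 Cre-negative calls, 110 to 230 Cre-positive calls, 38 to 63 abolished, 42 to 56 reduced, 24 to 58 kept and 34 to 39 list genes. The kept count was 24, 26 and 27 without Cre-negative crushed replicates 1, 2 and 3, and 27 without Cre-negative uncrushed replicate 1. Cre-negative calls were 330 and 335 without Cre-negative crushed replicates 1 and 3, and Cre-positive calls 110 and 116 without Cre-positive uncrushed replicates 2 and 5. No paired analysis was possible because the labels give no replicate numbers and do not tie arrays to animals. Slide as a random block gave 122 interaction calls, all 106 among them. Signal over background limits dim genes such as Colec10 and Sprr2g, whose folds are bounds.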

Other observations

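The array whose labels disagree on its group entered no comparison. Its values were -1.03 for Chac1, 4.36 for Ecel1, 0.23 for Ddit3, 1.81 for Sox11, -0.34 for Sprr1a, 2.33 for Pou4f2, 0.96 for Isl2, 0.14 for Scn4b, -1.14 for Cxcl10 and 2.34 for Map3k12.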
